A study of Drosophila melanogaster with 36 samples.

Results

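Binding regions that were found for Abd-B and for no other factor of the stable lines were analysed here. They were chosen by their coordinates in the deposited lists. A region of the line expressing Abd-B alone, called at q 1e-10, was kept when it overlapped no region of any Dfd, Ubx, Hth or Gcm line at the more permissive q 1e-2 and when its centre lay outside annotated 3' UTRs. A region of the Abd-B+Hth line was allowed to overlap. Of the 10375 Abd-B regions at q 1e-10, 1419 (13.7%) overlapped none of the 10 other lines. The centres of 128 of these lay in 3' UTRs, which left 1291 private regions, 12.4% of the Abd-B regions. All lists together held 64006 regions at q 1e-10. The comparison set, called other Abd-B regions below, was the 8687 Abd-B regions at q 1e-10 that overlapped at least 1 of the 10 lines and had their centres outside 3' UTRs.

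Binding was measured by anti-GFP ChIP-Seq in Kc167, a Drosophila cell line that resembles blood cells (hemocytes). There were 12 stable lines with 2 ChIP libraries and 1 input library each, 36 libraries in all. eGFP was fused to the Hox protein where there was one, while the lines Hth and Gcm, without a Hox protein, carried it on the factor they are named for. Expression came from plasmids under the metallothionein promoter and was induced with CuSO4, and cells were sorted within 1 range of GFP fluorescence. The Abd-B+Hth line received 2.5 mM CuSO4 and the Abd-B line 0.5 mM, both for 24 h, so that Hth and the copper dose cannot be told apart between these lines. The lines whose regions the private regions avoid were Dfd (2 mM, 24 h), Dfd+Hth (2.66 mM, 22 h), Dfd+Gcm (3.2 mM, 24 h), Dfd+Hth+Gcm (3.7 mM, 22 h), Ubx, Ubx+Hth and Hth (each 1 mM, 18 h), and Ubx+Gcm, Ubx+Hth+Gcm and Gcm (each 2.5 mM, 24 h). Each of them received more CuSO4 than the Abd-B line, so that the factor and the copper dose cannot be told apart in the private regions either. The cells lack Hth of their own and express Exd, which enters the nucleus only with Hth.

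Abd-B is the most posterior of the fly Hox proteins. It gives the rear abdominal segments and the genitalia their identity, and in the embryo it directs the making of the posterior spiracles, the rear openings of the tracheal system. Hox homeodomains read short AT-rich sites. The more anterior Hox proteins favour a TAAT core (the HoxA type of motif), whereas Abd-B favours a TTAT core (the HoxB type). Exd and Hth are homeodomain cofactors of the TALE class that bind DNA together with Hox proteins.

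The sequences of 8 private regions are shown because these regions were rich in HoxB matches in their central 200 bp, with 5 in the first and 4 in each of the others. In all, 19 private regions held 4 or more, and among those tied at 4 the widest were taken. A region of ct, described with that gene, equalled the last of them in matches and width and is not shown here. Of each region, the 30 bases with the most whole matches are given from the plus strand of dm6, with the matches in capitals. A match is any of TTTATGA or TTTATGG or TTTATTA or TTTATTG, or its reverse complement. The regions lay in introns of dlg1, a scaffold of cell junctions, Jupiter, a microtubule-associated protein, bbg, a PDZ protein, CG43739 and the synaptic protein gene sky, which overlap, mld, a zinc finger protein of ecdysone synthesis, and Hs6st, a heparan sulfate sulfotransferase. A further region was centred in an exon of unc-13, a gene of synaptic vesicle priming, and another lay between genes within 2 kb of CG5681.
dlg1 (chrX:11394974-11395003): tttaaatCCATAAAttCCATAAAtgtttgg
Jupiter (chr3R:11602710-11602739): gtacTAATAAAacaagtttTAATAAActaa
bbg (chr3L:14430870-14430899): CAATAAAaacaatatcgacaacaTAATAAA
unc-13 (chr4:883686-883715): aagcattTAATAAAtTTTATTAtgttaaaa
near CG5681 (chr2L:17984974-17985003): gaaTTTATGAatgtccaacgTAATAAAtaa
CG43739 and sky (chr2L:20889271-20889300): cTTTATTAtgcccgccgtgtgtTTTATTAa
mld (chr3R:24613939-24613968): cgacatgatttaTTTATTGccttcaaacgg
Hs6st (chr3R:19941150-19941179): gctgattgcatTCATAAAacccaacaaaga
In 6 of the 8 windows 2 whole matches fell within 30 bases, and both strands were used, as in the window of unc-13, where a match read on the minus strand is followed by one read on the plus strand.

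A second set is shown from genes of the lists described below. They have known roles under Abd-B or in the abdomen, except dpp, which was listed for limb and trunk patterning. For the widest private region at each of these genes, the 30 bases of the whole region with the most HoxB matches are given in the same way. bab1 and bab2 (bric a brac) encode BTB transcription factors that hold back pigment in the abdomen and are repressed by Abd-B in the male. dsx (doublesex) encodes the sex determination factor that acts on bab beside Abd-B. ct (cut) encodes a homeodomain factor and crb (crumbs) an apical polarity protein of the posterior spiracles, and dpp encodes a TGF-beta ligand.
bab2 (chr3L:1153383-1153412): tatacactTTTATTAtTTTATTAttacgat
bab1 (chr3L:1086918-1086947): ccatccaatggcCAATAAAtcgagctcata
dsx (chr3R:7946934-7946963): acgccgtgatggCCATAAAtcaggctgcag
ct (chrX:7667064-7667093): ctcaacaatttTCATAAAtctgacgatcgc
crb (chr3R:24298852-24298881): cattTAATAAATAATAAAataTTTATGGaa
dpp (chr2L:2445858-2445887): ttaaataTTTATGAaaTCATAAAatttgat
The window of crb held 3 whole matches, those of bab2 and dpp 2 each and the others 1 each.

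The private regions were narrow. Their width had a median of 441 bp (quartiles 343 and 603.5 bp, range 231 to 2207 bp), against a median of 591 bp in the other Abd-B regions (quartiles 406 and 939 bp, range 225 to 9240 bp). No test is given, because wide regions have more chance to meet a region of another line and the rule therefore prefers narrow ones. Private regions took similar shares of the Abd-B regions on the large arms, from 11.6% on X (194 regions) to 14.6% on 3L (308 regions), with 8 private regions on chromosome 4. The density was 8.24 to 11 per Mb on the large arms.

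The rule divides regions that can differ by a few bases. The distance of a private region to the nearest region of the 10 lines had a median of 1031 bp (quartiles 372.5 and 2835 bp), was 1 bp at the least and 44848 bp at the most. It reached 1000 bp in 664 private regions and 10000 bp in 61. The nearest region belonged most often to the Gcm line (339 private regions) and the Hth line (257). The private regions closest to another line were chr3L:15519891-15520314 between genes near yellow-k, 1 bp from a Gcm region, and chrX:15941454-15941860 in an intron of CG8924, 4 bp from a Ubx+Gcm region. Just outside the rule were chr3L:15813933-15815110 in an intron of fwe, which a Ubx+Gcm region overlapped by 1 bp, and chr3R:31859969-31860508 in an intron of heph, overlapped by 1 bp of a Gcm region. On the other side of the peak threshold, 1592 private regions were called at q 1e-2 but not at q 1e-10. Their median width was 380 bp, 51.4% had a HoxB match in the central 200 bp and 46.9% overlapped an Abd-B+Hth region. The Abd-B list at q 1e-10 was the longest of the 12 (1832 to 9418 regions in the others). Among the stable ChIP libraries whose reads the paper lists, an Abd-B library had the most mapped reads. The lists hold no read counts, and the part of list length and depth in the number of private regions was not tested.

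Private regions were overlapped less often by Abd-B+Hth regions than the other Abd-B regions were. At q 1e-2, Abd-B+Hth regions overlapped 978 of 1291 private regions (75.8%, 95% exact binomial interval 73.3 to 78.1%) and 8299 of 8687 other Abd-B regions (95.5%, 95.1 to 96%), an odds ratio of 0.146 (two-sided Fisher's exact test, p = 4.85e-105). The background over all 9978 Abd-B regions outside 3' UTRs was 93%. The private share was the lower on each of the 5 large arms, 71.3 to 77.6%, against 94.7 to 96.9% in the other regions. With the Abd-B+Hth list at q 1e-10 the shares were 47.2% (609 regions) in private and 77.8% (6757 regions) in other Abd-B regions, where the background was 73.8%. The rule did not use the Abd-B+Hth line, but it kept only regions absent from the lists of 10 other lines, some with Hth. The Abd-B+Hth share rose with the number of these lines that overlapped, from 75.8% with 0 to 99.7% with 10. The test is therefore not independent of the rule, and it cannot separate an effect of Hth from the choice of regions. Each line is a single list drawn from 2 libraries, so the p-values here and below measure the spread over regions and not between replicates.

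The difference was present at each width. Abd-B regions were divided into 4 width classes of like size. In the narrowest class (225 to 391 bp), 63.7% of 496 private and 90.9% of 1981 other regions overlapped Abd-B+Hth at q 1e-2 (p = 1.56e-44, Fisher's exact test). In the widest class (881 to 9240 bp) the shares were 91.2% of 114 private and 99.3% of 2418 other regions (Fisher's exact test, p = 1.53e-07). Both shares were higher in wider regions. The odds ratio was 0.177, 0.249, 0.174 and 0.078 from the narrowest to the widest class. Away from transcript starts, with centres over 500 bp from any, the shares were 73.9% of 1066 private and 92.7% of 4226 other regions. Where Abd-B+Hth had a q 1e-10 region of its own, that region was as a rule slightly narrower than the Abd-B region it overlapped, with a median width ratio of 0.903 at 609 private and 0.914 at 6757 other regions.

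**Figure D1:**
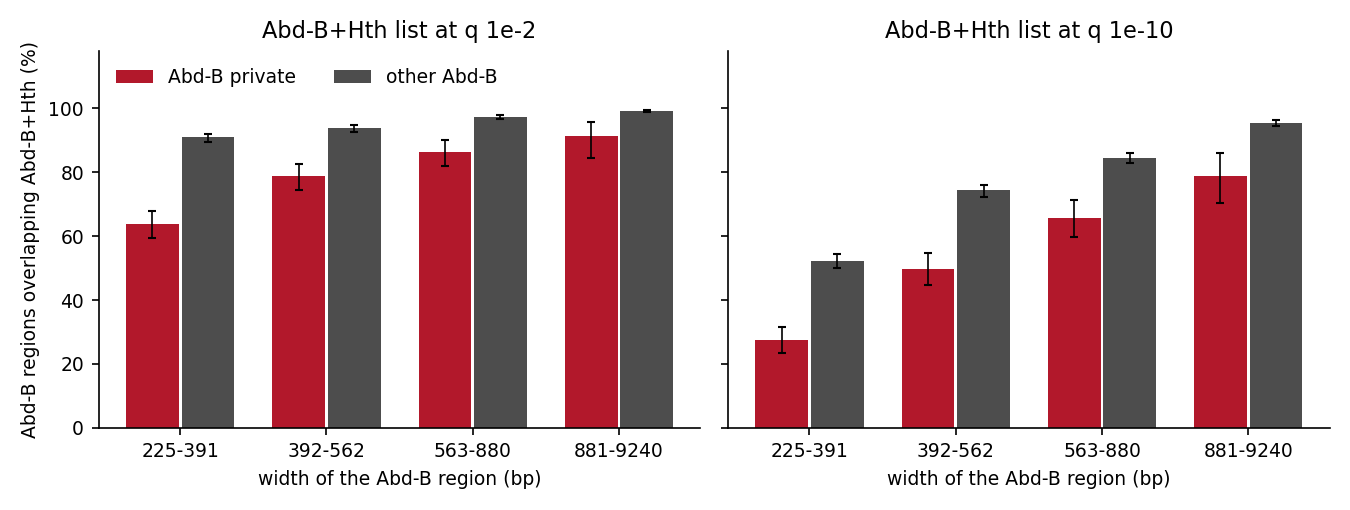
Share of Abd-B regions (y axis, %) that overlap an Abd-B+Hth region at q 1e-2 (left) and q 1e-10 (right), in 4 classes of region width (x axis, bp), for private regions (red) and other Abd-B regions (grey); error bars are 95% exact binomial intervals. The private share lies below the other share in all 8 pairs, from 63.7% against 90.9% in the narrowest to 91.2% against 99.3% in the widest class at q 1e-2.

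Of the 10 motifs counted, HoxB showed the largest difference in share between private and other Abd-B regions, 25.1 percentage points. Within 200 bp around the centre, 763 of 1291 private regions (59.1%, 56.4 to 61.8%) held a HoxB match, and 2956 of 8687 other Abd-B regions (34%, 33 to 35%) did, an odds ratio of 2.8 (two-sided Fisher's exact test, Benjamini-Hochberg adjusted over 10 motifs, adjusted p = 3.38e-64). The background over all Abd-B regions was 37.3%, and 25.3% of the 668175 windows of 200 bp that tile the genome held a match. The private share was higher on all 5 arms, 56.3 to 61.4%, against 30.6 to 36.5% in other regions. The difference was smaller among AT-rich windows. In the lowest of 3 classes of GC content, with 613 private regions, the shares were 61.3% against 46.9%, a difference of 14.4 percentage points. In the middle class they were 61% against 36% and in the highest 47.7% against 21.6%. Windows centred 1000 bp to either side of the private regions held a match in 27.5% of 2582 cases, well below the 59.1% at the centres (odds ratio 3.8, Fisher's exact test p = 3.1e-80), and near the genome's share. The same flanks of other Abd-B regions stood at 23.5%. The centre and flanks of a private region belong to the same locus, and the test did not use this pairing.

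Private regions also held more HoxB matches each. The mean was 0.91 ± 0.953 matches per 200 bp in private regions and 0.437 ± 0.694 in other Abd-B regions (SD over 1291 and 8687 regions). At least 2 matches were present in 312 private regions (24.2%) and 697 other Abd-B regions (8.02%), and at least 4 in 19 private (1.47%) and 21 other regions (0.242%). At the other end, 528 private regions (40.9%) had none in the central 200 bp. Over the whole region, 80.5% of private and 67.2% of other Abd-B regions had a match, although the other regions offered more bases to search.

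All 4 HoxB heptamers were more frequent in private regions, and those ending in G or A after TTTATG differed most. TTTATGG was found in 20.1% of private and 7.79% of other Abd-B windows (5.17% of genome windows), and TTTATGA in 18.4% and 7.99% (5.56%). TTTATTA stood at 21.5% in private and 12.9% in other windows, and TTTATTG at 21.5% in private and 12% in other windows, with 10% and 8.3% of genome windows. Among 1175 matches in private regions, 47.1% had the G of TTTATG at position 6, counted from the first T of the match, against 37.9% of 3800 matches in other regions. The base before the match was T in 47.8% of private and 41.4% of other matches. These frequencies over bases are a description, with no test.

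A related site with C in place of T, TTTACGA or TTTACGG, here called the TTTACG type, was more frequent too. It was present in 170 private regions (13.2%, 11.4 to 15.1%) and 540 other Abd-B regions (6.22%, 5.72 to 6.74%), an odds ratio of 2.29 (Fisher's exact test, adjusted p = 4.6e-16), higher on 5 of 5 arms. Within 500 bp of a transcript start (6.67% of 225 private and 5% of 4461 other regions) and in the widest width class (10.5% and 5.42%) it did not pass the test. The flanks of private regions held it in 4.49% and genome windows in 4.2%. TTTACGA accounted for most of it, with 10.9% of private and 4.16% of other windows, whereas TTTACGG was found in 2.63% and 2.15%. Together, 837 private regions (64.8%) had a HoxB or TTTACG-type match in the central 200 bp, and 1085 (84%) had one somewhere in the region. The shares in other Abd-B regions were 37.9% and 71.2%.

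**Figure D2:**
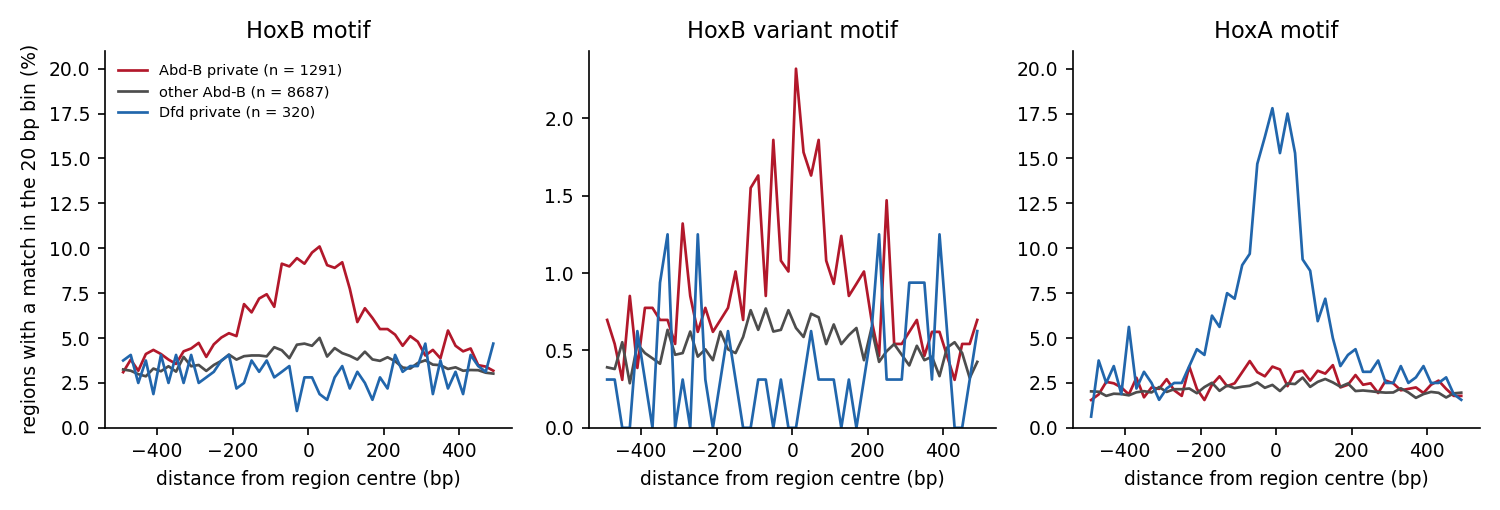
Share of regions (y axis, %) with a motif match in each 20 bp bin, by distance from the region centre (x axis, bp), for HoxB (left), the HoxB variant with C, the TTTACG type (middle, smaller y scale), and HoxA (right), in private Abd-B regions (red), other Abd-B regions (grey) and private Dfd regions (blue). HoxB matches of the private Abd-B regions are most frequent near the centre (10.1% of regions from 20 to 40 bp) and fall to 3.18% at the edge. HoxA matches reach 17.8% from -20 to 0 bp in the Dfd regions, where the private Abd-B regions have 3.41%.

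The matches lay near the region centres. Within 50 bp of the centre, private regions held 5 HoxB matches per kb, against 1.85 per kb in the same regions 400 to 500 bp away. In other Abd-B regions the densities were 2.32 and 1.56 per kb. The TTTACG type showed the same shape in private regions, with 0.798 per kb near the centre and 0.267 per kb at 400 to 500 bp. Its densities in other Abd-B regions were 0.324 and 0.216 per kb. HoxA matches were also denser near the centre of private regions, at 1.78 per kb against 1.37 per kb. Other Abd-B regions showed a similar HoxA rise, with 1.51 per kb against 1.21 per kb.

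The remaining motifs differed less, and in both directions. HoxA heptamers (CTAATGA or CTAATTA or TTAATGA or TTAATTA) were found in 25.9% of private and 19.7% of other Abd-B regions (odds ratio 1.43, Fisher's exact test, adjusted p = 8.04e-07), but the call was lost in the lower 2 of 3 classes of GC content, with 30.8% against 29.1% (adjusted p = 0.577) and 23% against 21.2% (adjusted p = 0.499). The flanks of private regions held HoxA matches in 16.5%, those of other Abd-B regions in 14.8% and genome windows in 16.2%. It was also lost on either side of 500 bp from a transcript start. With the whole region searched the private share was the lower, 48.6% against 49.5%. GAGAG, the core site of GAGA factor, was found in 18% of private and 27.1% of other Abd-B regions (odds ratio 0.594, Fisher's exact test, adjusted p = 4.04e-12), lower on all 5 arms, while 21.4% of genome windows held it. In the class of windows with the lowest GC content its shares were 14% and 14.6% (Fisher's exact test, adjusted p = 0.938), and the class above it gave 18.6% and 23.2% (adjusted p = 0.0548). Private regions had a lower GC content, with a median of 36% in 200 bp against 39.5%.

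Of the composite octamers that Exd and Hox proteins bind together, TGATTTAT was found in 50 private regions (3.87%) and 2.71% of other Abd-B regions (adjusted p = 0.0309, Fisher's exact test), TGATTAAT in 14 (1.08%) and 2.03% (adjusted p = 0.0303), and TGATTGAT in 16 (1.24%) and 1.27% (adjusted p = 1). Each was rare, and the first 2 calls were lost when arm 2L was left out. The Hth core TGACAG was found in 5.27% of private and 7.21% of other Abd-B regions (Fisher's exact test, adjusted p = 0.0163). GATA sites (AGATAA or AGATAG or TGATAA or TGATAG), which the GATA factors of blood cells bind, were found in 33.9% of private and 37% of other regions (Fisher's exact test, adjusted p = 0.0391). Gcm sites (ATACGGGC or ATACGGGT or ATGCGGGC or ATGCGGGT) were found in 4 private regions (0.31%) and 1.08% of other regions (Fisher's exact test, adjusted p = 0.0117). The calls of Hth, GATA and Gcm sites were also lost without 2L. The genome's windows held the octamers in 2.16%, 1.36% and 1.28%, the Hth core in 7.49%, GATA sites in 30% and Gcm sites in 0.995%.

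**Figure D3:**
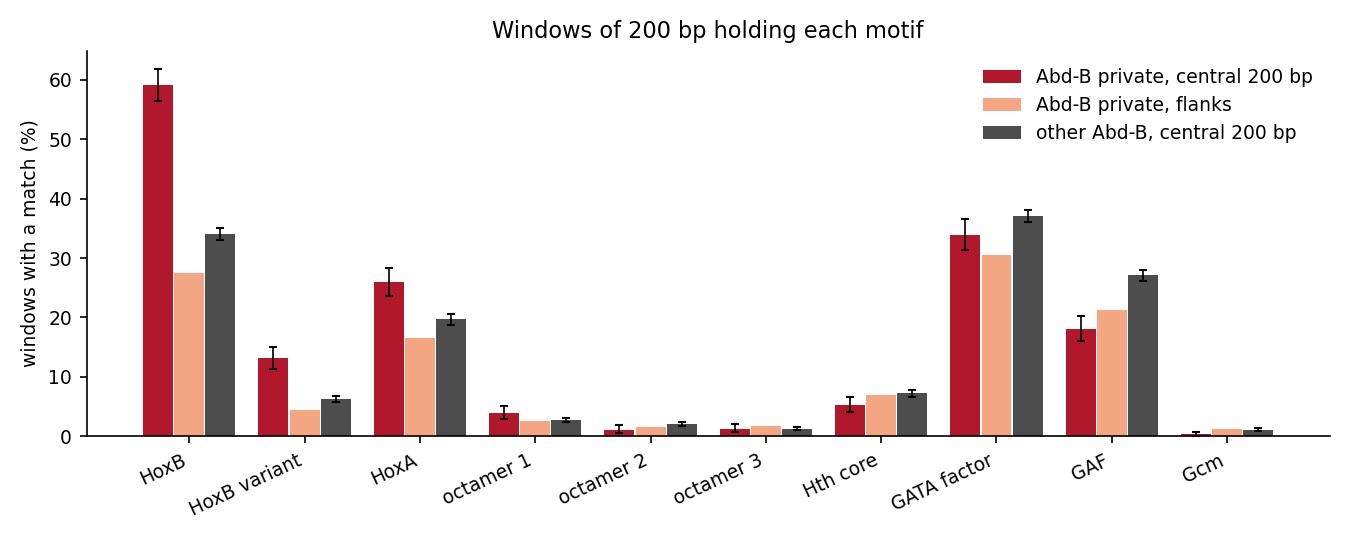
Share of 200 bp windows with a match (y axis, %) for 10 motifs (x axis), in private Abd-B regions (red), windows 1000 bp to either side of them (orange) and other Abd-B regions (grey); error bars are 95% exact binomial intervals and flanks have none. HoxB variant is the TTTACG type, octamers 1 to 3 are TGATTTAT, TGATTAAT and TGATTGAT, and GAF is GAGAG; the HoxB share stands out at 59.1% against 27.5% in the flanks and 34% in other Abd-B regions.

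A ranking of all 1503 hexamers present in at least 5% of either set, with strands merged, was led by the same sites. The hexamer with the highest ratio was TTATGG, in 28.7% of private and 12.9% of other Abd-B windows, a ratio of 2.22. It was followed by TATGGC (19.6% and 10.1%), TTTATG (51.5% and 26.8%), TTATGA (27.5% and 15.2%) and, with C in the core, TACGAC (7.28% and 4.09%) and TTACGA (16% and 9.06%). TATGGC and GGCCAT, also among the leading hexamers, carry bases beyond the heptamer. The octamer TTATGGCC, chosen after its hexamers were seen, was found in 61 private regions (4.73%), 1.3% of other Abd-B regions and 1.2% of genome windows. At the low end were AGAGAG (5.03% of private and 13.6% of other windows), CGTGCG (2.48% and 6.37%) and CTATCG (4.88% and 12.3%). The ranking is a description.

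The HoxB share was lower in regions that more lines shared, though not at every step. It was 59.1% in private regions, 43.5% in the 646 Abd-B regions overlapped by 1 other line, 36.9% in the 729 overlapped by 5 and 27.4% in the 1592 overlapped by all 10. The share with an Abd-B+Hth region ran the other way, from 75.8% in private regions over 85.4% with 1 other line to 99.7% with all 10. Regions overlapped by 1 line had a median width of 422.5 bp, close to the 441 bp of the private ones, and those overlapped by all 10 a median of 1075 bp. Within the width classes the HoxB shares of private and other regions were 56.9% against 31.5%, 62.6% against 34.3%, 60.7% against 35.9% and 52.6% against 34.1%, from the narrowest to the widest (adjusted p = 0.000788 at the most, Fisher's exact test).

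**Figure D4:**
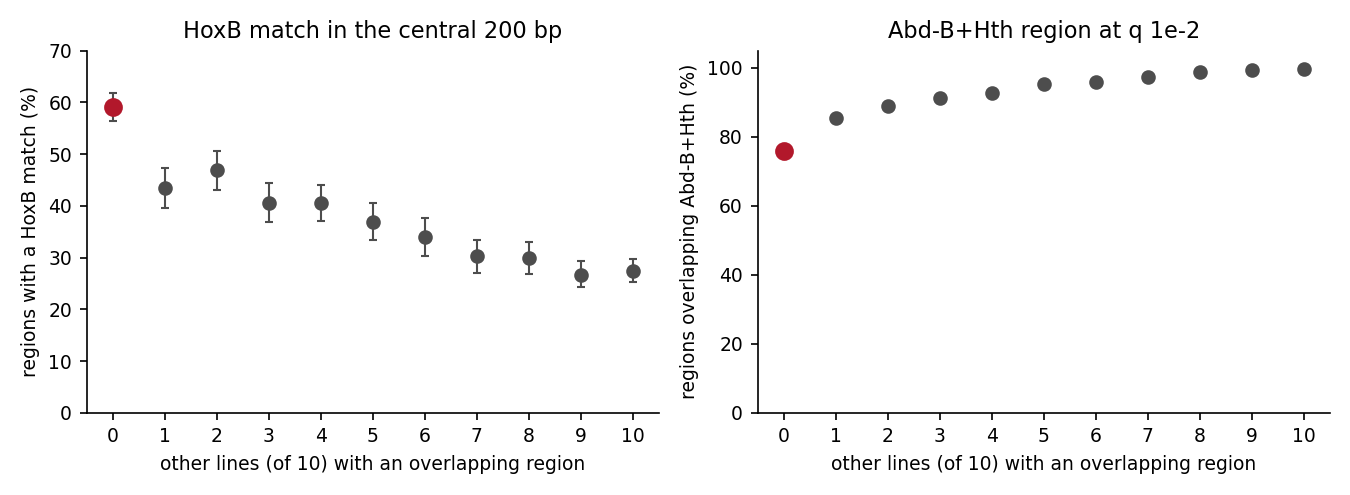
Abd-B regions at q 1e-10 outside 3' UTRs by the number of the 10 other lines with an overlapping region (x axis), with the share holding a HoxB match in the central 200 bp (left panel, y axis in %, with 95% exact binomial intervals) and the share overlapping an Abd-B+Hth region at q 1e-2 (right panel, y axis in %). The private regions are the red points at 0, at 59.1% and 75.8%, and the regions shared by all 10 lines are at 27.4% and 99.7%.

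Private regions of Dfd, an anterior Hox protein that patterns the head, differed from those of Abd-B in the motif they held. Chosen in the same way from Dfd at q 1e-10, against all Ubx, Abd-B, Hth and Gcm lines without Dfd, there were 320 with a median width of 345 bp. Regions of the Dfd lines with cofactors were allowed to overlap. HoxB matches were found in 59.1% of private Abd-B regions and 21.6% of private Dfd regions (17.2 to 26.5%), an odds ratio of 5.26 (two-sided Fisher's exact test, adjusted over both motifs, adjusted p = 1.51e-34). HoxA matches were found in 25.9% of private Abd-B regions and 78.4% of private Dfd regions (73.5 to 82.8%), an odds ratio of 0.0963 (Fisher's exact test, adjusted p = 9.49e-67). The directions held on all 5 arms. Near the centre, HoxA matches of the Dfd regions reached 10.4 per kb, whereas their HoxB matches stood at 1.04 per kb, below the 1.64 per kb found 400 to 500 bp away. Only 3 private Dfd regions fell in the widest width class, where neither difference passed the test.

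Within the private regions, those with and without an Abd-B+Hth region differed in width, and no motif difference passed the test in the central 200 bp. HoxB matches were found in 584 of 978 private regions with an Abd-B+Hth region at q 1e-2 (59.7%, 56.6 to 62.8%) and 179 of 313 without one (57.2%, 51.5 to 62.7%), a difference of 2.53 percentage points (Fisher's exact test, adjusted over 3 motifs, adjusted p = 0.429). The TTTACG type stood at 14.2% with and 9.9% without (Fisher's exact test, adjusted p = 0.164) and TGATTTAT at 4.29% with and 2.56% without (adjusted p = 0.273). Over whole regions, which were wider with Abd-B+Hth (median 472.5 bp) than without (375 bp), the HoxB shares were 82% and 75.7% (Fisher's exact test, adjusted p = 0.0174), the TTTACG-type shares 27.9% and 16.9% (adjusted p = 0.000216) and the TGATTTAT shares 11% and 4.47% (adjusted p = 0.000506). Wider regions offer more bases to match, and the part of width in these differences was not tested. In 3 steps, from the 609 regions with Abd-B+Hth at q 1e-10 over the 369 with it at q 1e-2 alone to the 313 without, the median width was 530, 394 and 375 bp and the HoxB share 62.1%, 55.8% and 57.2%. The share within 500 bp of a transcript start was highest in the middle step, at 28.7%, against 13.8% and 11.2%.

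Private regions lay in introns and away from transcript starts. The centre fell in an intron in 872 private regions (67.5%, 64.9 to 70.1%) and 4104 other Abd-B regions (47.2%, 46.2 to 48.3%), an odds ratio of 2.32 (two-sided Fisher's exact test, adjusted over 5 features, adjusted p = 1.76e-42), with a background of 49.9% over all Abd-B regions. With centres in 3' UTRs kept, the intron shares were 61.5% of 1419 private and 45.8% of 8956 other regions. Within 500 bp of a transcript start were 225 private (17.4%) and 4461 other Abd-B regions (51.4%), an odds ratio of 0.2 (Fisher's exact test, adjusted p = 7.3e-124). 5' UTRs held 5.42% of private and 18.8% of other centres (Fisher's exact test, adjusted p = 3.34e-40). Between genes were 24.2% of private and 30% of other centres (Fisher's exact test, adjusted p = 1.84e-05), and in coding exons 16 private regions (1.24%) and 1.84% of the others (adjusted p = 0.14). The median distance to a transcript start was 2299 bp for private and 450 bp for other Abd-B regions, and 12.9% of private and 4.75% of other centres were over 10 kb from any.

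The position depended on the rule for the other lines. When regions of those lines counted only at q 1e-10, 3075 Abd-B regions were private and 49.8% of them lay in introns, against 49.9% of the rest (Fisher's exact test, adjusted p = 1), while 41.9% and 49.2% lay within 500 bp of a start (adjusted p = 4.41e-11). Centres between genes turned to the other direction and passed the test, at 31.8% of private and 28.1% of other regions (Fisher's exact test, adjusted p = 0.000276). When private regions had to be 1000 bp from other lines, these shares were 30.1% and 29.2% (Fisher's exact test, adjusted p = 0.627). The HoxB difference also passed the test with the other lines at q 1e-10, at 47.4% of 3075 private and 32.7% of 6903 other regions (Fisher's exact test, adjusted p = 4.66e-43). It was also present on both sides of the start distance. HoxB matches were found in 61.2% of 1066 private and 40.1% of 4226 other regions over 500 bp from a start (Fisher's exact test, adjusted p = 5.37e-34), and in 49.3% of 225 private and 28.3% of 4461 other regions within 500 bp (adjusted p = 9.35e-10).

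**Figure D5:**
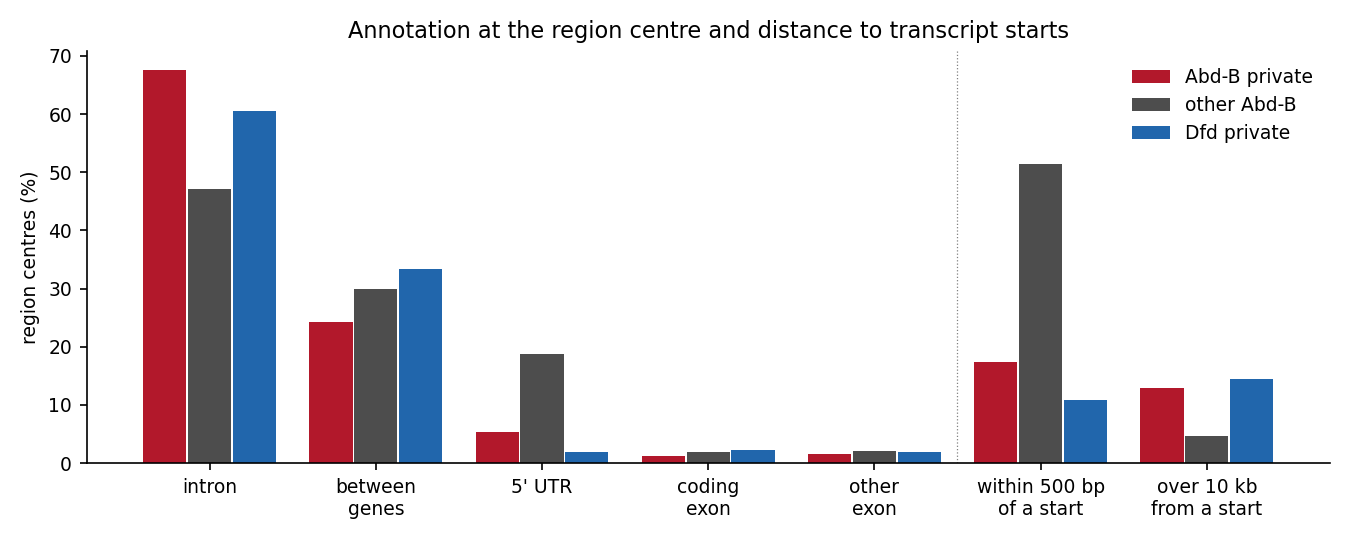
Share of region centres (y axis, %) in each annotation class and at given distances from transcript starts of protein-coding and ncRNA genes (x axis), for private Abd-B regions (red), other Abd-B regions (grey) and private Dfd regions (blue). Introns hold 67.5% of private against 47.2% of other Abd-B centres, and 17.4% against 51.4% lie within 500 bp of a start; the private Dfd regions have 60.6% in introns and 10.9% near starts.

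The widest private region, 2207 bp, lay in an intron of bab2 at chr3L:1151955-1154161. It held 12 HoxB matches over its length and overlapped Abd-B+Hth at both thresholds, and its nearest region of another line was 91 bp away. The next widest were 1887 bp between genes near cmpy (chr3L:20709288-20711174, 5 HoxB matches), 1857 bp over a coding exon of CG3164 and ND-15 (chr2L:125296-127152, 8 matches), and 1809 bp in an intron of the RhoGAP gene cv-c (chr3R:14442298-14444106, 11 matches). Wide private regions also lay in introns of the trehalase gene Treh (1778 bp, 8 matches), hebe (1719 bp, 7 matches), CG13676 (1664 bp, 7 matches), SNF4Agamma, which encodes the gamma subunit of AMP-activated kinase (1623 bp, 6 matches), and loh (1512 bp, 3 matches), and between genes near CG15498 (1554 bp, 7 matches). All 10 of the widest overlapped Abd-B+Hth at q 1e-2, and all but the region near cmpy did so at q 1e-10.

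The widest private regions without an Abd-B+Hth region were found at other genes. A pair of neighbouring regions in an intron of apt, which encodes the transcription factor Apontic, measured 1474 bp (chr2R:23582923-23584396) and 1162 bp (chr2R:23581682-23582843), with 5 and 4 HoxB matches. The others lay between genes near the cuticle protein gene Cpr35B (chr2L:14422146-14423360, 5 matches), in an intron of CG33144 (chr2R:10766827-10767983, 4 matches) and in an intron of the acyl-CoA synthetase gene Acsl (chr2R:8672524-8673671, 2 matches).

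Private regions were spread over many genes. Of 13945 protein-coding genes, 1322 (9.48%) had a private region in the gene or within 2 kb, and 7850 had another Abd-B region. Most of the 1322 genes had a single private region (1056 genes), 182 had 2 and 84 had 3 or more. A further 139 private regions (10.8%) were within 2 kb of no protein-coding gene, against 5.17% of other Abd-B regions. The median distance between a private region and the nearest other one was 14600 bp, and 415 (32.1%) had another within 5 kb.

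The most private regions at a single gene were 7, at msi and at sbb. msi encodes the RNA-binding protein Musashi, and its 7 private regions, all in introns, were 282 to 781 bp wide. They held HoxB matches in the central 200 bp in 6 cases, and 3 overlapped Abd-B+Hth. sbb (scribbler), a transcriptional corepressor, had 7 private and 16 other Abd-B regions. Drak, a kinase related to death-associated protein kinases, SNF4Agamma and kirre, an adhesion protein of muscle founder cells, had 6 each. In Drak there were more private than other Abd-B regions (6 and 4), while SNF4Agamma and kirre each had 19 other Abd-B regions. A further 11 genes had 5 private regions. These were CG42788, Mob2, jvl, mtgo, px and pyd, the cAMP phosphodiesterase gene dnc, dsx, gce, which encodes a juvenile hormone receptor, the membrane protein gene kek5 and the Dpp receptor gene tkv. These 16 genes are 21.3 to 394 kb long, against a median of 2.17 kb over all protein-coding genes, and the count is not adjusted for length.

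Lists of genes were compared by counts alone, with no test, beside all protein-coding genes, where private regions numbered 1.12 per 100 kb of gene and 2 kb flanks and other Abd-B regions 7.99 per 100 kb. The list for abdominal pigmentation and the loss of the last segment had the highest private density, 3.15 per 100 kb (9 private and 31 other Abd-B regions). Only 3 of its 10 genes had private regions, bab1 with 3, bab2 with 1 and dsx with 5. In bab1 they measured 358, 281 and 977 bp, all in introns, and the widest held 5 HoxB matches. In dsx they measured 326, 959, 771, 592 and 324 bp, 4 in introns and the last in the 5' UTR. This last one was 15 bp from a region of another line, whereas the other 4 were 2402 to 6567 bp away. The genes yellow (y), ebony (e), wg, Egfr, vn and emc had other Abd-B regions and no private one.

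Genes of the posterior spiracle carried 1.91 private regions per 100 kb, with 4 of 17 genes reached, against 14 of 17 for other Abd-B regions. ct had 4 private regions, all in introns. Those measuring 597, 572 and 487 bp lay near each other and overlapped no Abd-B+Hth region, and the narrowest of these held 4 HoxB matches in its central 200 bp. The fourth, 1051 bp wide, overlapped Abd-B+Hth at both thresholds. crb had private regions of 621 and 332 bp, and Cad86C and Cad88C, which encode cadherins of the spiracle, had 2 and 1. No private region was found at ems, salm, grn, upd1 or dome, which act with ct in the spiracle.

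In this blood-like cell, 5 of 19 hemocyte genes had a private region, 1.76 per 100 kb. They were eater, a phagocytosis receptor gene with 2 private regions and no other Abd-B region, srp, the hemocyte GATA factor gene, Pvr, a receptor of the PDGF and VEGF type, msn, a kinase gene, and PPO1, a prophenoloxidase gene, with 1 each. The region assigned to PPO1 lay in an intron of the neighbouring gene Elk. Other Abd-B regions stood at 20 per 100 kb at the hemocyte genes. Of the Abd-B regions there, 8.11% were private, against 12.3% over all protein-coding genes. A private region was present at 9.48% of all protein-coding genes, but the hemocyte genes are longer (median 7.67 kb against 2.17 kb). Of 13 ecdysone response genes 4 were reached, with 2 private regions each in Eip75B, Eip78C and ftz-f1 and 1 in EcR, at 0.959 per 100 kb, while other Abd-B regions were dense there (13.6 per 100 kb). Limb and trunk patterning genes stood at 1 per 100 kb, with private regions at dpp (807 bp, 4 HoxB matches) and ptc, the Hedgehog receptor gene (736 and 362 bp). The region of dpp lay 66 bp and those of ptc 87 and 147 bp from a region of another line. Among TALE and cofactor genes only hth had private regions, 2 in introns, both overlapped by Abd-B+Hth at q 1e-10. The narrower of them held 3 HoxB matches and the wider 2 TTTACG-type matches in the central 200 bp.

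The remaining lists varied. No private region lay within 2 kb of the 8 Hox genes, although all 8 had other Abd-B regions (17 in all). None lay at the 16 muscle genes, which had 10 other Abd-B regions. The 4 cell death genes rpr, hid, grim and skl had neither private nor other Abd-B regions. Adhesion genes of the nervous system had few Abd-B regions of either kind. Private regions reached 4 of 30 dpr and DIP genes (0.313 per 100 kb, beside 1.02 other Abd-B regions) and 3 of 22 beat and side genes (0.291 per 100 kb, beside 0.68). Of the Abd-B regions at these lists, 23.5% (4 private and 13 other) and 30% (3 private and 7 other) were private, against 12.3% over all protein-coding genes. The share also exceeded 12.3% at the receptor (23.1%), abdominal pigmentation (22.5%), posterior spiracle (20.9%) and TALE and cofactor genes (15.4%). It was lower in the remaining lists with Abd-B regions. Of 17 neural regulators, pros, fru and so had 1 each (0.523 per 100 kb). Odorant and gustatory receptor genes stood at 1.06 per 100 kb with 5 of 119 genes, and ribosomal protein genes at 1.42 per 100 kb with 7 of 92 genes, beside a high density of other Abd-B regions at ribosomal protein genes (26.6 per 100 kb). These counts depend on the distance allowed. With gene bodies alone and with 10 kb on either side, 1 and 20 receptor genes, 3 and 21 ribosomal protein genes and 2 and 5 neural regulators had a private region. With 10 kb, 4 TALE and cofactor genes, 1 Hox gene and 1 cell death gene had one.

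Some private regions lay in groups. The densest stretches of up to 100 kb held 8 private regions each. One spanned chr2R:22492072-22590625 over px, gas and dnr1, with 14 other Abd-B regions, and another spanned chr3R:21153838-21249652 over SNF4Agamma, e and neighbours, with 17 other Abd-B regions. Stretches with 7 private regions lay around Mad and toc on 2L, around da on 2L, around mtgo on 2L and around sbb on 2R, where private regions outnumbered the 6 other Abd-B regions.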

How the data were processed

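For alignment the authors used Bowtie 1.2.2 on the assembled chromosomes of dm6 and kept uniquely placed reads. Each replicate was set against its input in MACS2 2.1.1.20160309, at q 1e-2 and again at q 1e-10. Peaks over plasmid-borne exons were dropped, and overlapping peaks of the replicates were joined. The deposited lists hold start and end positions only. Scores are 0 throughout, and the lists give no depth, summits or values per replicate.

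Sequence came from genome Release 6 and gene models from Ensembl release 115. Both use dm6 coordinates, and no region ended beyond a chromosome. An overlap of 1 bp counted. The Hth list was identical in its 3 tables. Overlap counts matched bedtools 2.31.1 in 11 of 11 comparisons. Python 3.11.15, numpy 2.4.6, scipy 1.17.1 and matplotlib 3.10.9 were used, and the functions were tested on simulated data. Shares carry 95% exact binomial intervals, which cover counting error only. Motifs were counted on both strands, a site once. Introns and transcript starts came from protein-coding and ncRNA genes.

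The private regions, gene lists and tests were chosen with earlier results of these data known. Regions named are the 10 widest, the 5 widest without Abd-B+Hth, the first 8 by HoxB matches in the central 200 bp and then by width, those nearest the rule's limit and the widest at list genes. Genes named are those with most private regions, ties included, and members of the 14 lists. Comparisons of motifs within width classes and by distance to transcript starts were added after seeing the data.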

Additional observations from a re-analysis of the deposited data

How the results depend on the processing

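No analysis paired by replicate was possible because the 2 replicates of a line were joined into a single list. For the same reason no replicate could be left out. Differences here are percentage points, private minus comparison set. The Abd-B+Hth difference and the HoxB differences from other Abd-B regions and from flanks kept direction and call in every alternative run. Their size varied. The Abd-B+Hth difference was -19.8 as reported, -10.4 with other lines at q 1e-10, -12.6 with 400 bp windows on the region centres and -30.6 with the Abd-B+Hth list at q 1e-10. The HoxB difference from other Abd-B regions was 25.1 as reported and 14.7 with other lines at q 1e-10. Counting other lines only at q 1e-10 gave 3075 private regions, and asking for 1000 bp of distance gave 664. The first setting turned the intron difference (-0.164) and the difference between genes (3.75, which passed the test), and the second the difference between genes (0.939). Genes with a private region numbered 839 with gene bodies alone and 3038 with 10 kb on either side, and the counts of the receptor, ribosomal protein, neural, TALE, Hox and cell death lists moved by over 1.5 times. Against private Dfd regions, the calls were lost in the widest class (HoxA -4.39, HoxB 19.3), where only 3 Dfd regions remained. Between private regions with and without Abd-B+Hth, the HoxB difference was -3.88 in the central 100 bp, -0.476 without arm X, -5.11 with other lines at q 1e-10, and 6.29 over whole regions, where it passed the test. The TTTACG-type difference was -0.225 with other lines at q 1e-10. Directions of the rarer motifs also turned. HoxA gave -0.855 over whole regions and the Hth core 3.44 in the widest class. TGATTAAT gave 0.00158 in the highest GC class. TGATTGAT gave 0.158 in that class, 0.0595 near transcript starts, 0.0642 without 2R, 0.0705 without 3R, and 0.553, 0.746 and 1.06 in width classes 1, 3 and 4. TGATTTAT gave -0.136 and -0.029 in the lowest and highest GC classes, -0.863 near transcript starts and -0.289 over whole regions. Except where stated, the cause was not tested. Settings by width class for motifs and by distance to transcript starts were chosen after seeing the data. The lists hold no read counts or summits, so depth and binding strength were not weighed, and region centres stand in for summits.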
